A study of Mus musculus with 4 samples.

Results

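R-spondins are secreted proteins that bind LGR receptors together with the membrane-bound E3 ubiquitin ligases RNF43 and ZNRF3. Those ligases mark Frizzled receptors and LRP co-receptors for removal from the cell surface, and R-spondin binding takes the ligases themselves off the surface, so that cells respond more strongly to Wnt proteins. Lgr5, Rnf43 and Znrf3 are known targets of the pathway, and Lgr5 is known as a marker of epithelial stem cells, also in the cervical loop of the growing incisor. The 9 mouse genes of this axis, namely Rspo1 to Rspo4, Lgr4 to Lgr6, Rnf43 and Znrf3, were taken by symbol from a table of 55487 genes. Each of the 9 had counts in all 4 libraries and passed the low-count filter that left 17128 genes for testing.

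RNA came from lower incisors of C57 mice at postnatal day 30, labelled as dental pulp and dental progenitor cells. The sort kept cells without CD45, Ter119 or Tie2 at the surface, a gate meant to remove blood and endothelial cells. The gate selects for no progenitor marker, and markers of blood and endothelial cells were still counted. The 2 control libraries came from Ptipf/f mice, with floxed Ptip alleles and no Cre, and the 2 knockout libraries from Ptipf/f;Sp7-cre mice. Sp7 drives the Cre in bone and odontoblast lineage cells, so sorted cells outside them can keep Ptip, and since the controls carry no Cre, effects of Cre itself and of Ptip loss cannot be told apart. The labels do not say whether libraries came from separate animals, and p-values measure only the spread between these samples, which may be technical. Ptip, listed as Paxip1, stood at 28.3 and 44.3 CPM (counts normalised to the scaled library total) in controls 1 and 2 and at 5.69 and 3.98 CPM in knockouts 1 and 2, and all later pairs of values keep that order.

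Library totals ran from 15154246 to 19142757 counts, and 3 counts were worth 0.154 to 0.209 CPM. Markers of the labelled tissue were present, with all 10 dental mesenchyme markers counted. Their summed level was 1011 and 1370 CPM in the controls and 3837 and 3439 CPM in the knockouts. Msx1 made up most of it, at 724.5 and 847 CPM against 2912 and 2525 CPM, while Lhx8, Prrx1 and Pdgfra overlapped. Markers of cells outside the labelled tissue were counted too. The 7 ameloblast markers summed to 63123 and 22613 CPM in the controls and 34748 and 41810 CPM in the knockouts. Most of that sum was Ambn, which overlapped, whereas 5 of the 7 markers were lower in both knockouts and 0 higher. Over all tested genes those shares were 24.9% and 25.8%. The 8 leukocyte markers summed to 3250 and 896 CPM against 504 and 166 CPM, with Ptprc, the gene of CD45, at 140, 144, 39.2 and 9.25 CPM. Tek, the gene of Tie2, stood at 21.7, 81.2, 44.8 and 41.8 CPM. Dental epithelial markers gave 897 and 417 CPM against 373 and 371 CPM, with 9 of 10 detected and Sox2 at 0. Periodontal ligament and tendon markers gave 766 and 2475 CPM against 539 and 1297 CPM, and Schwann cell markers 370 and 523 CPM against 111 and 137 CPM. The controls thus differed from each other in these sums, and several sums also differed with genotype.

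The question put to the axis was whether its genes differed between knockout and control, as the series title ties Ptip to the Wnt pathway. Rspo4, Lgr4, Lgr6, Rspo1 and Znrf3 stood above both controls in each knockout library, Lgr5 and Rspo3 stood lower in both, and Rspo2 and Rnf43 overlapped. None of the 9 passed an adjusted p of 0.05 in edgeR's quasi-likelihood test, which called 0 of 17128 genes (0%). Knockouts lay above the controls without overlap in 25.8% of all tested genes and below them in 24.9%, against 5 and 2 of the 9 members. At an unadjusted threshold of 0.05, 3 members were higher (Rspo4, Lgr4 and Znrf3) and 1 lower (Lgr5), where the shares over all tested genes were 7.32% and 9.89%. DESeq2 called 1 member, Lgr5, lower and none higher, against 5.18% of genes lower and 2.47% higher. The median log2 fold change of the members was 0.78, and that of all tested genes 0.0024. Without control 1 the members' median was 0.32, and without control 2 it was 1.06.

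**Figure D1:**
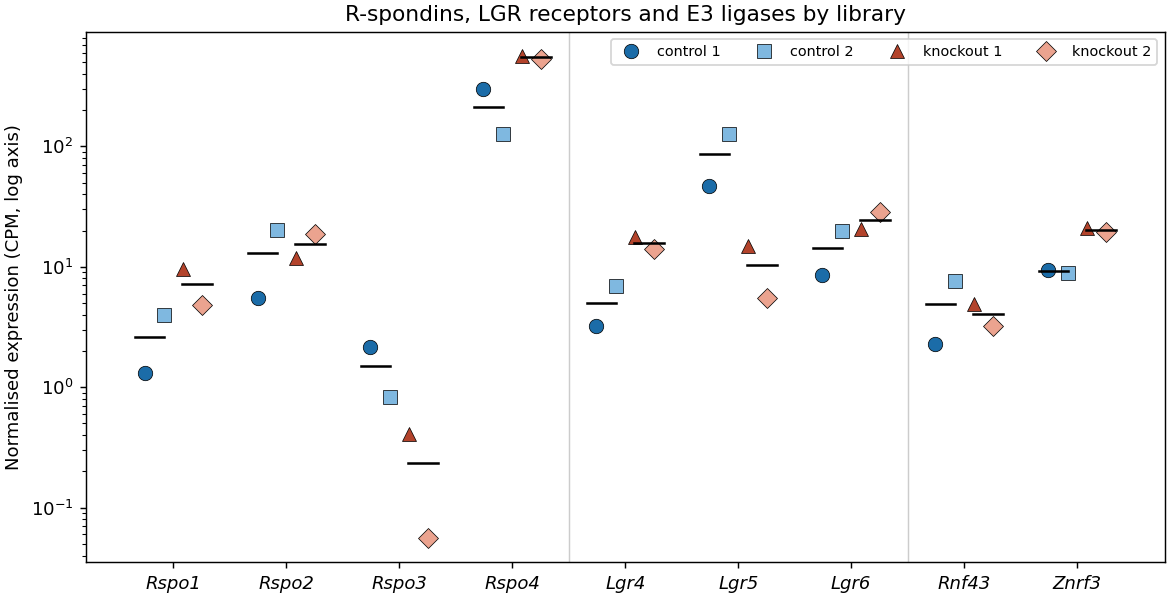
Normalised expression (CPM, log axis) of the 9 genes, with a point for each of the 4 libraries and a line at the mean of each group. Rspo4 is the most abundant in every library, Lgr5 lies below its control points in each knockout, and the controls differ from each other more than the knockouts do for 6 of the 9 genes.

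Among the ligands, Rspo4 made up nearly all of the R-spondin RNA. Rspo4 (ENSMUSG00000032852, chromosome 2 from 151842927 to 151874668, plus strand of GRCm38) is the R-spondin whose loss in humans leaves nails missing. It was counted 4298 and 2007 times in the controls against 10934 and 9569 times in the knockouts. Its level was 298.8 and 127.7 CPM in the controls and 560.4 and 536.3 CPM in the knockouts. Both knockouts lay above both controls, and the knockouts were closer to each other than the controls, which differed 2.34-fold. The fitted level was 2.57-fold higher in the knockouts (log2 fold change 1.36, SE 0.46, edgeR adjusted p = 0.212). With 1 library left out it ranged from 0.84 on the log2 scale (without control 2) to 2.13 (without control 1, adjusted p = 0.0188), so the size of the difference rests on which control is kept. In the same knockout libraries 7 of 10 dental mesenchyme markers were higher and 5 of 8 leukocyte markers lower than in both controls. Over all tested genes the shares were 25.8% higher and 24.9% lower. Of the 7, Barx1 had only 3 counts in knockout 1. Other marker lists differed as well, and the part of any list in the Rspo4 difference was not tested. In such bulk libraries, fewer cells of a type and less RNA per cell cannot be told apart.

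Per kilobase of annotated exons, Rspo4 stood at 126 and 53.9 CPM per kilobase, or RPKM, in the controls and 236 and 226 RPKM in the knockouts. It held 98.1% and 89.5% of the summed R-spondin RPKM in the controls, against 97.0% and 97.3% with the knockout. The summed R-spondin level was therefore close to that of Rspo4 alone: 128 and 60.2 RPKM in the controls against 244 and 232 RPKM in the knockouts. That is 94.3 ± 48.3 against 238 ± 8.05 RPKM (SD, n = 2 each), with an exact two-sided permutation p of 0.333, the smallest that 2 against 2 samples allow. Among the tested protein-coding genes of each library, Rspo4 stood above 94.4% or more of them.

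RefSeq promoter windows (GRCm38.p6) were found for 5 of the 9 members: Rspo1, Rspo4, Lgr4, Lgr6 and Rnf43. The 250 bases before the start of Rspo4 and of Lgr4 are shown, because these members of chromosome 2, a ligand and a receptor, were both higher in both knockouts. Capitals mark the GC box (GGGCGG) and the CCAAT box (CCAAT), each searched on both strands; the CCAAT box was added to the search after the windows had been read. The Rspo4 window is chr2:151842677-151842926 and that of Lgr4 is chr2:109917397-109917646, both on the plus strand.
Rspo4: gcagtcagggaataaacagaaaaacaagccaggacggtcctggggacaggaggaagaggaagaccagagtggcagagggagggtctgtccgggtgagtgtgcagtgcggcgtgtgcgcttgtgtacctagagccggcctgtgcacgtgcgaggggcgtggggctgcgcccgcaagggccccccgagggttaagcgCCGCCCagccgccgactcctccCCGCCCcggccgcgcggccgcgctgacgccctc
Lgr4: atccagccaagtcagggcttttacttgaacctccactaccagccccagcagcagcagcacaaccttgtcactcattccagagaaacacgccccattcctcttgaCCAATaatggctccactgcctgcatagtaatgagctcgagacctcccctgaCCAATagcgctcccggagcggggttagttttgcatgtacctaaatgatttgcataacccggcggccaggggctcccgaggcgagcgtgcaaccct
The Rspo4 window held 2 GC boxes and no CCAAT box, and the Lgr4 window 2 CCAAT boxes and no GC box, so these windows shared neither. Of the windows not shown, that of Lgr6, also higher in both knockouts, held 1 GC box and no CCAAT box. Those of Rspo1, also higher in both knockouts, and of Rnf43 held neither. Over 32851 mouse windows of this length, 32.7% held a GC box and 33.8% a CCAAT box. The core of the TCF/LEF motif, through which beta-catenin acts on DNA, was searched as CTTTGA or CTTTGT on both strands. It was absent from every window of the 5 members and present in 27.6% of all windows, which says only that these letters are not in these stretches.

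The other R-spondins were far lower. Rspo1 (ENSMUSG00000028871, chromosome 4 from 124986430 to 125009099, plus strand) was counted 19 and 62 times in the controls against 186 and 86 times in the knockouts. These were 1.32 and 3.95 CPM against 9.53 and 4.82 CPM, so the groups did not overlap, but control 2 and knockout 2 lay close together. Its log2 fold change was 1.44 (SE 0.81, edgeR adjusted p = 0.427), and 0.88 to 2.39 with 1 library left out. Rspo2 (ENSMUSG00000051920, chromosome 15 from 43020794 to 43170826, minus strand), the R-spondin needed for limb and lung growth, was counted 79 and 320 times in the controls against 233 and 335 times in the knockouts. At 5.49 and 20.4 CPM against 11.9 and 18.8 CPM the knockouts lay between the controls, which differed 3.71-fold. Its log2 fold change of 0.25 (SE 0.67, edgeR adjusted p = 0.902) turned to -0.39 without control 1 and to -0.07 without knockout 2.

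Rspo3 was the scarcest member. The gene (ENSMUSG00000019880, chromosome 10 from 29452416 to 29535867, minus strand), which is needed for placental vessels, was counted 31 and 13 times in the controls against 8 and 1 times in the knockouts. Exact Poisson 95% intervals, which cover counting error only since PCR copies were not marked, ran from 21.1 to 44.0 and 6.92 to 22.2 counts in the controls. In the knockouts they ran from 3.45 to 15.8 and from 0.025 to 5.57 counts, so that control 2 and knockout 1 could not be told apart at this depth. The fitted log2 fold change was -2.63 (SE 1.39, edgeR adjusted p = 0.395), and it ranged from -4.55 (without knockout 1) to -1.76 (without control 1).

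The balance among the receptors differed between the groups. Lgr5 made up 71.6% and 75.0% of the summed LGR RPKM in the controls, against 19.6% and 7.60% with the knockout. The share of Lgr4 was 8.56% and 7.15% in the controls against 40.1% and 33.6%, and that of Lgr6 19.8% and 17.9% against 40.3% and 58.8%. The 2 controls had nearly the same composition, although their summed LGR levels were 6.35 and 16.3 RPKM. In the knockouts the sums were 7.43 and 7.11 RPKM, between those of the controls, a placement that depends on the length used. For each of the 3 shares the exact two-sided permutation p was 0.333, the smallest possible here. With the longest coding transcript as length in place of all annotated exons, the mean Lgr5 share was 84.8% in controls and 23.5% in knockouts. The sums were then 11.8 and 31.0 RPKM in the controls against 9.71 and 8.25 RPKM, so that both knockouts lay below both controls. A ratio of counts needs no length: there were 5.41 and 6.29 Lgr5 counts per Lgr6 count in the controls, against 0.73 and 0.194. Such ratios within a library show unequal change between the receptors, not which of them changed.

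**Figure D2:**
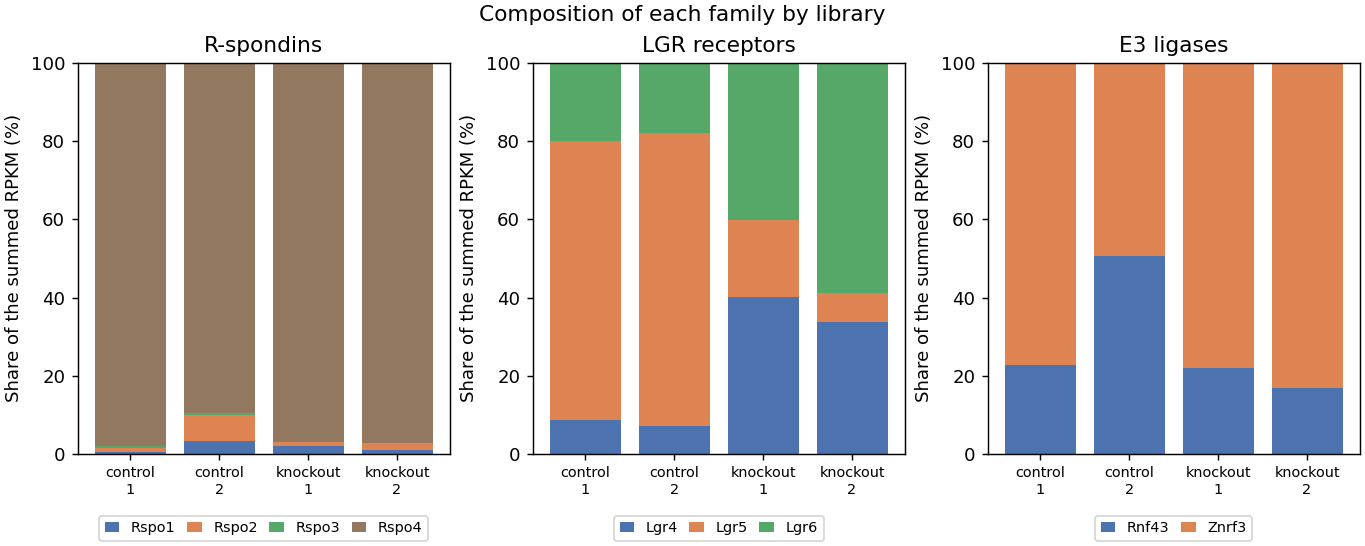
Share of each gene (%) in the summed RPKM of its family, with a bar for each library. Rspo4 fills 89.5% or more of the R-spondin bar everywhere, and Lgr5 fills 71.6% or more of the LGR bar in both controls but 19.6% and 7.60% in the knockouts.

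Lgr5 (ENSMUSG00000020140, chromosome 10 from 115450311 to 115587780, minus strand) was counted 671 and 1976 times in the controls against 292 and 99 times in the knockouts. These were 46.7 and 125.8 CPM in the controls against 15.0 and 5.55 CPM. Every control value lay above every knockout value, and each group spread 2.70-fold. The fitted level was 8.39-fold lower in the knockouts (log2 fold change -3.07, SE 0.68). This difference was the largest among the members and did not pass in edgeR (adjusted p = 0.161) or limma-voom (adjusted p = 0.101), whereas it passed in DESeq2 (adjusted p = 3.6e-05). With 1 library left out it ranged from -3.94 (without knockout 1, edgeR adjusted p = 0.00035) to -2.23 (without control 2, adjusted p = 0.125). It also passed without control 1 (-3.58, adjusted p = 0.0057). Dental epithelial, periodontal ligament and tendon, and Schwann cell markers were lower in summed level in both knockouts than in control 2, which had the most Lgr5. Between the controls the epithelial sum went the other way from Lgr5, at 897 CPM in control 1 and 417 CPM in control 2. The ligament and tendon sum of knockout 2, 1297 CPM, was above the 766 CPM of control 1. Of these lists, 4 of 10, 3 of 6 and 3 of 6 members lay below both controls in each knockout. Over all tested genes that share was 24.9%. Mkx of the ligament and tendon list and Sox10 of the Schwann cell list lay above both controls. Members of other lists were lower as well: 7 of 7 erythroid, 5 of 7 ameloblast, 5 of 8 leukocyte and 4 of 7 endothelial markers, with 0 higher. The odontoblast, leukocyte, erythroid, endothelial and pericyte sums were also below that of control 2 in both knockouts. The endothelial sum, like Lgr5, was highest in control 2, at 617 and 1021 CPM against 513 and 473 CPM. Only the dental mesenchyme and ameloblast sums were above control 2 in both knockouts. The part of any list in the Lgr5 difference was not tested.

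Lgr4 (ENSMUSG00000050199, chromosome 2 from 109917647 to 110014257, plus strand), the most widely expressed of the receptors, was counted 46 and 108 times in the controls against 342 and 251 times in the knockouts. Its level was 3.20 and 6.87 CPM in the controls and 17.5 and 14.1 CPM in the knockouts. The groups were well apart, and the fitted level was 3.13-fold higher in the knockouts (log2 fold change 1.65, SE 0.57, edgeR adjusted p = 0.221). It stayed between 1.23 and 2.26 with 1 library left out. Lgr6 (ENSMUSG00000042793, chromosome 1 from 134983301 to 135105276, minus strand), known from hair follicle stem cells, was counted 124 and 314 times in the controls against 400 and 511 times in the knockouts. At 8.62 and 20.0 CPM against 20.5 and 28.6 CPM, knockout 1 was barely above control 2. Its log2 fold change was 0.78 (SE 0.53, edgeR adjusted p = 0.516), and 0.32 without control 1.

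The ligases differed in pattern. Znrf3 (ENSMUSG00000041961, chromosome 11 from 5276324 to 5444847, minus strand) was counted 136 and 140 times in the controls against 408 and 346 times in the knockouts. It was the member with the least spread, at 9.46 and 8.91 CPM in the controls and 20.9 and 19.4 CPM in the knockouts. The fitted level was 2.19-fold higher in the knockouts (log2 fold change 1.13, SE 0.43, edgeR adjusted p = 0.249), and with 1 library left out it stayed between 1.06 and 1.23. In DESeq2 the adjusted p was 0.212. Rnf43 (ENSMUSG00000034177, chromosome 11 from 87662722 to 87735539, plus strand), the closest relative of Znrf3, was counted 33 and 119 times in the controls against 95 and 58 times in the knockouts. Its knockout values of 4.87 and 3.25 CPM lay between the control values of 2.29 and 7.57 CPM. The log2 fold change of -0.28 (SE 0.81, edgeR adjusted p = 0.907) became 0.78 without control 2 and 0.024 without knockout 2. Znrf3 held 77.4% and 49.4% of the summed ligase RPKM in the controls against 78.1% and 83.2%, so control 2 stood apart from the other 3 libraries.

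**Figure D3:**
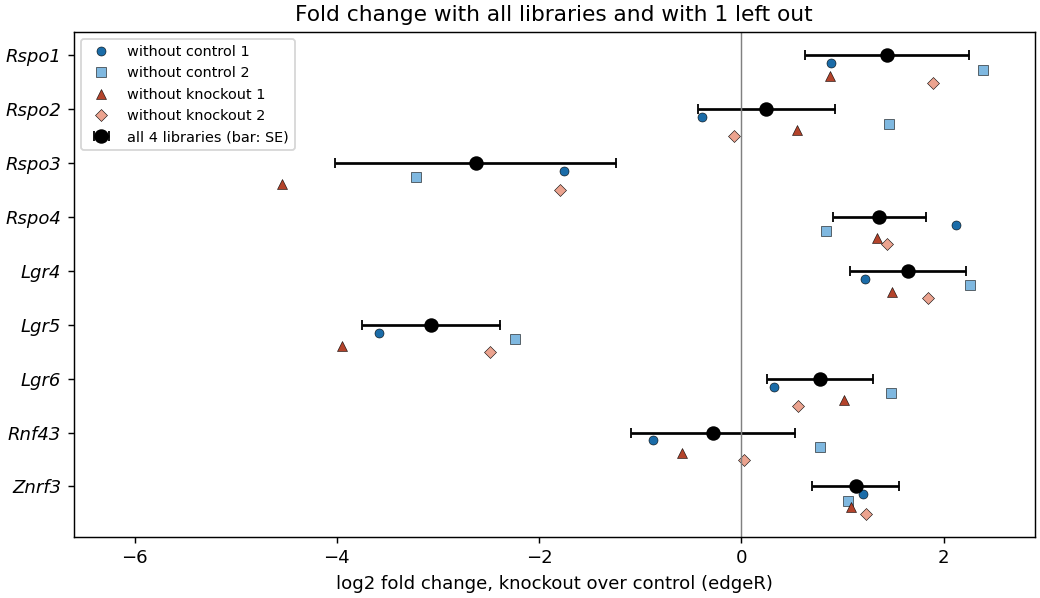
Fitted log2 fold change of each gene (knockout over control, edgeR), with its SE from all 4 libraries in black and the values with 1 library left out in colour. Rspo2 and Rnf43 cross 0 when a library is left out, and the other 7 genes keep their side of it in every fit shown.

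Set side by side per kilobase, the order of levels differed between the groups. In controls Rspo4 (90.0 RPKM) was followed by Lgr5 (8.40 RPKM) and then by Rspo2, Lgr6, Rspo1, Znrf3, Lgr4, Rnf43 and Rspo3, from 2.53 down to 0.483 RPKM. Rspo4 and Lgr5 were separate from their neighbours, and each of the others overlapped with the next over the 2 libraries. In knockouts Rspo4 (231 RPKM) was followed by Rspo1, Lgr6, Rspo2, Lgr4 and Znrf3, from 3.70 to 2.55 RPKM, each overlapping with the next. Lgr5 (0.999 RPKM) and Rnf43 (0.619 RPKM) overlapped with each other below those, and Rspo3 (0.0754 RPKM) was lowest. The summed R-spondin level was 20.2 and 3.68 times the summed LGR level in the controls, and 32.8 and 32.7 times in the knockouts (exact two-sided permutation p = 0.333). With the longest coding transcript as length, chosen after seeing the data, these ratios were 10.9 and 2.01 against 25.3 and 28.4. In that order Lgr5 in the knockouts, at 1.18 to 3.17 RPKM, overlapped with Lgr4 and was no longer separate from it.

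The controls differed from each other in a way that touched most of the axis. Rspo1, Rspo2, Lgr4, Lgr5, Lgr6 and Rnf43 were 2.15-fold to 3.71-fold higher in control 2 than in control 1, Znrf3 was level, and Rspo3 and Rspo4 were 2.61-fold and 2.34-fold lower. Control 1 also had the larger sums of leukocyte, ameloblast and dental epithelial markers, although Ptprc was level at 140 and 144 CPM. Control 2 had the larger sums of dental mesenchyme, odontoblast, endothelial, pericyte, Schwann cell, and periodontal ligament and tendon markers. Overlapping genes on either strand had few counts. Rspo4os, antisense to Rspo4, had 16 counts in knockout 2 and 0 in the other libraries, and A930009A15Rik, which overlaps Lgr5 on the other strand, had 9 in all.

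The Frizzled receptors and LRP co-receptors are the proteins on which the ligases act. Without overlap between the groups, 6 of 12 tested genes were higher in the knockouts and 0 lower, where all tested genes gave 25.8% and 24.9%. The median log2 fold change was 0.49, with 0.29 when control 1 was left out and 0.96 when control 2 was. None passed in edgeR, and 1, Fzd9, was called higher by DESeq2, against 2.47% of genes. Fzd9 stood at 1.53 and 1.59 CPM in the controls and 6.87 and 27.3 CPM in the knockouts. Fzd7, a receptor known from stem and progenitor cells, stood at 15.1 and 14.6 CPM against 28.8 and 39.3 CPM. On the lower side, Fzd4, the receptor for norrin, had a log2 fold change of -0.32 (SE 0.58), and Fzd10 one of -0.75 (SE 1.11), both with overlapping groups. Lrp6, the co-receptor that the ligases also clear, stood at 11.3 and 24.4 CPM in the controls and 24.96 and 27.1 CPM in the knockouts.

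Of 8 tested other partners of the axis, 2 were higher and 2 lower in both knockouts, shares close to the 25.8% and 24.9% of all tested genes. Their median of -0.10 turned to 0.16 without control 1 and was -0.29 without control 2. Dvl3, a Dishevelled gene whose protein carries the signal from Frizzled and brings the ligases to it, stood at 5.77 and 10.9 CPM against 18.3 and 28.1 CPM. Dvl1 stood at 13.7 and 10.1 CPM against 5.33 and 3.87 CPM, so members of the Dishevelled family lay on opposite sides. Ptprk, a receptor phosphatase that acts on ZNRF3, stood at 19.6 and 38.5 CPM against 66.1 and 49.0 CPM. Iqgap1, a scaffold protein gene linked to LGR4, stood at 395 and 378 CPM against 214 and 211 CPM. Bmpr1a, which some R-spondins lower together with ZNRF3, overlapped, at 13.1 and 46.7 CPM against 45.1 and 54.4 CPM.

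Wnt ligands carry the signal that the axis amplifies. Among 14 tested of 19, 4 were higher and 4 lower in both knockouts, again close to the 25.8% and 24.9% of all tested genes, with a median of -0.78 that turned to 0.32 without control 2. Wnt2 stood at 4.94 and 10.9 CPM in the controls and 0.718 and 0.504 CPM in the knockouts. DESeq2 called it lower, against 5.18% of genes. Wnt10b stood at 5.28 and 2.99 CPM against 0.513 and 0.785 CPM. On the higher side were Wnt6, at 11.3 and 8.85 CPM against 17.7 and 32.1 CPM, and Wnt11, at 7.16 and 5.22 CPM against 9.94 and 10.6 CPM.

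Among 13 tested targets and feedback genes of beta-catenin, other than Lgr5, Rnf43 and Znrf3, 6 were higher and 3 lower in both knockouts, against 25.8% and 24.9% of all tested genes. Their median was 0.41, and 0.70 without control 2. None passed in edgeR, and DESeq2 called 3 higher (Notum, Bambi and Dkk1), against 2.47% of genes. Of these, Dkk1 had 586 counts in knockout 1 and 83 in knockout 2. Notum, which encodes an enzyme that inactivates Wnt proteins, stood at 0.973 and 1.78 CPM in the controls and 10.1 and 15.0 CPM in the knockouts. Bambi, a pseudoreceptor gene of the BMP pathway, stood at 447 and 310 CPM against 1107 and 1287 CPM. Lef1, a DNA-binding partner of beta-catenin, stood at 270 and 88.5 CPM against 99.3 and 44.7 CPM, with overlap. Tnfrsf19, also called Troy and, like Lgr5, a marker of intestinal stem cells, stood at 94.6 and 108 CPM against 61.2 and 54.1 CPM. The known targets within the axis thus lay on both sides, with Znrf3 higher, Lgr5 lower and Rnf43 overlapping.

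**Figure D4:**
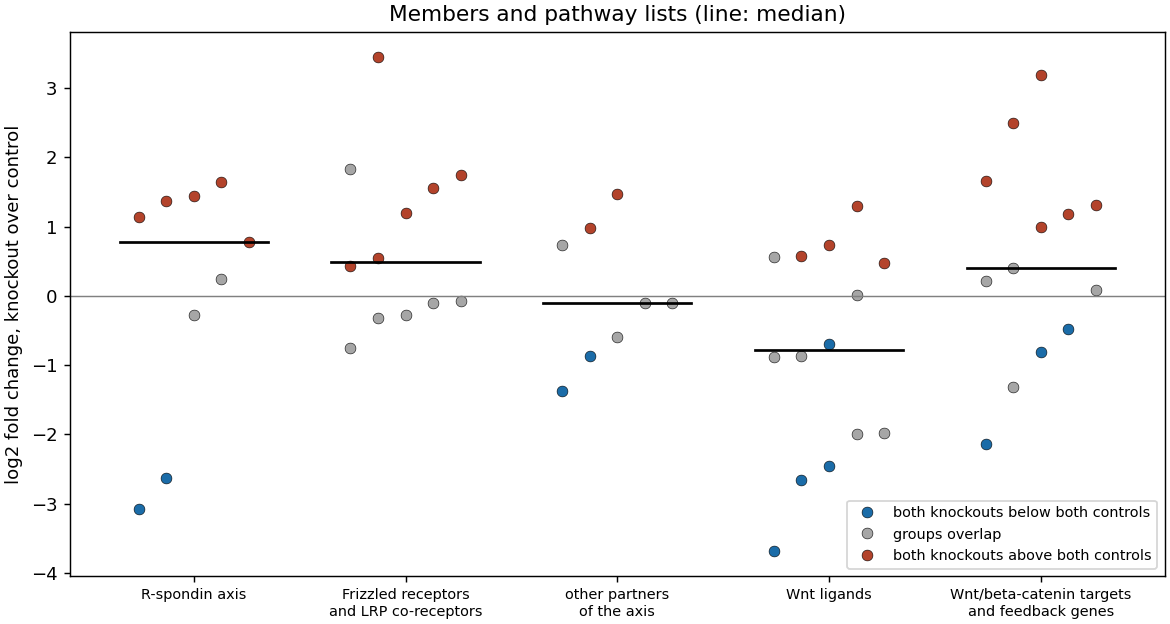
Fitted log2 fold change (knockout over control) of the 9 members and of the tested genes in 4 related lists, with a line at each median and colour for whether the 2 groups overlap. The Frizzled and LRP list has 6 genes higher and 0 lower without overlap, and the other lists have genes on both sides.

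Patterns over the 4 libraries were compared by the distance between log2(CPM + 0.5) values, centred per gene, among 9968 protein-coding genes (9969 for Rspo1 and Rnf43) with a mean of at least 10 CPM. Lgr5 had the fewest genes of like pattern, with 6 within a distance of 0.5. The values were not scaled per gene, so such counts depend also on the size of a gene's differences between libraries. Nearest to Lgr5 were C1qtnf3 (0.228), Masp1 (0.273) and Col14a1 (0.303). C1qtnf3, a secreted C1q-related protein gene, stood at 86.7 and 271 CPM in the controls and 27.0 and 10.2 CPM in the knockouts. Nearest to Rspo4 were Morn4 (0.197), H2-DMb1 (0.221) and Coprs (0.262), with 25 genes within 0.5. For Znrf3 and Lgr6, 607 and 506 genes lay within that distance, so their nearest genes are among many alike. These were Kbtbd7 (0.0547), Mapk1ip1 (0.0609) and Rxylt1 (0.0712) for Znrf3, and Eea1 (0.0624), Yipf6 (0.0637) and Appl2 (0.0754) for Lgr6. Nearest to Rspo2 were Cd109 (0.0282), Eif2ak4 (0.137) and Msrb3 (0.146), and nearest to Lgr4 were Gfra4 (0.126), Ift74 (0.177) and Eif2ak2 (0.179). Within 0.5 lay 134 genes for Rspo2 and 83 for Lgr4. Rnf43 was followed by Slc39a10 (0.0997), Fmo2 (0.145) and Angpt1 (0.149), and Rspo1 by 5730409E04Rik (0.238), Eva1a (0.288) and Tceal1 (0.298). For these 97 and 17 genes lay within 0.5. Rspo3, with a mean below 1 CPM, was left out.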

How the data were processed

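The deposited values were whole-number counts per Ensembl gene ID in 4 libraries, not normalised by the authors. Per the labels' protocols, cDNA was primed with oligo-dT, amplified in 14 PCR cycles and cut with a transposase kit, so strand and molecules are not marked. The submitters' processing notes name GRCm38, featureCounts 2.0.1, Bowtie2 2.3.5.1 and Trim Galore 0.6.6. For the annotation release, the strand setting and reads with several matches, the choice is not given in the sources used here.

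Symbols, coordinates and exon lengths came from GENCODE M21 (GRCm38), which held 55227 of the IDs. Genes were tested in R 4.3.3 with glmQLFit and glmQLFTest, the quasi-likelihood test of edgeR 4.0.16 at its default settings, after filterByExpr, with TMM scaling, genotype as the only term and Benjamini-Hochberg adjustment over all tested genes, two-sided. SE is the absolute log2 fold change divided by the square root of F. The biological coefficient of variation was 49.2%. CPM use TMM-scaled totals, and RPKM divide these by the union of annotated exons. DESeq2 1.42.0, limma-voom (limma 3.58.1) and the settings of the closing section were alternatives. Replicates were not copies of 1 library: their chi-square per gene was 130 for the controls and 79.5 for the knockouts.

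Members and gene lists were chosen with earlier results of these data known. Named from each pathway list were, for each direction, the 2 genes of lowest p, and, beyond that rule and after their values were seen, Lrp6 and Bmpr1a. Marker lists for pericytes, endothelial, erythroid and odontoblast cells were also summed. Pericyte and smooth muscle markers gave 818 and 1437 CPM in the controls against 553 and 1383 CPM. Endothelial markers gave 617 and 1021 CPM against 513 and 473 CPM, and erythroid markers 376 and 362 CPM against 74.9 and 94.3 CPM. Odontoblast markers gave 17348 and 39045 CPM against 14638 and 24795 CPM, and most of that sum was Col1a1, which overlapped. Of 6 odontoblast markers 2 (Nes and Sp7) were higher in both knockouts and 2 (Dspp and Phex) lower. Over all tested genes these shares were 25.8% and 24.9%.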

Additional observations from a re-analysis of the deposited data

How the results depend on the processing

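edgeR called 0 genes higher, 0 lower and 0 of the 9 members. DESeq2 called 458 higher, 959 lower and 1 member (Lgr5), and edgeR without the low-count filter 449, 1005 and 2 members (Lgr5 and Rspo4). In that unfiltered fit a gene's own spread did not enter its p, so its p-values can be far too small. limma-voom, RLE or no scaling, the stricter filter (a mean of 5 CPM, which left out Rspo1, Rspo3 and Rnf43) and, added after seeing the data, edgeR's newer estimate of spread called 0. With 1 library left out, edgeR called 0 to 215 genes higher, 0 to 703 lower and 0 to 2 members. The lone sample of a group is then assumed to vary like the other group. Lgr5 and Rspo4 passed without control 1, and Lgr5 without knockout 1.

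The replicate numbers share only a number in the labels (correlation of deviations 0.193 over 2 pairs). With the replicate block, edgeR called 59 genes higher, 185 lower and 0 members.

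With 1 library left out, log2 fold changes ran from -0.39 (without control 1) to 1.46 for Rspo2, also below 0 without knockout 2 (-0.07), from -0.87 to 0.78 (without control 2) for Rnf43, also above 0 without knockout 2 (0.024), and from -0.92 to 0.78 (without control 2) for Fzd4. The cause was not tested. The other members kept their direction in every setting run. Scaling moved the median of all genes by at most 0.037. The knockout-minus-control difference was -4.07 RPKM for the summed LGRs, -9.07 to 0.923 RPKM with 1 library left out, and -12.4 RPKM with the longest coding transcript as length (added after seeing the data), since Lgr5 has the most exon sequence outside that transcript. It was 3.34 percentage points for the Rspo4 share, and -0.935 to 7.61 points with 1 library left out. Both turned sign without control 2. With 2 libraries a group, no exact permutation p can go below 0.333, and low counts limit Rspo3 and Rspo1.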

Other observations

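Some genes of the pathway lists stood high in a single library, and these were picked after their values were seen. Dkk1, a secreted inhibitor of LRP co-receptors, had 30.03 CPM in knockout 1 and 2.86 to 4.65 CPM in the others. Fzd1 had 202 CPM in knockout 2 and 20.0 to 48.4 CPM in the others. Wnt3a had 12.1 CPM in control 1, 0 in control 2, and 1.08 and 1.96 CPM in the knockouts. Wnt16 had 8.08 CPM in control 2 and 0.0695 to 1.46 CPM in the others.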
